A study of Mus musculus with 3 samples.

Results

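Axon guidance genes encode secreted cues and the receptors that read them. The list examined here holds 9 of the 32285 genes counted: the class 3 semaphorins Sema3a, Sema3c, Sema3d and Sema3e, the netrin Ntn1, the Slit ligands Slit2 and Slit3, and the Slit receptors Robo1 and Robo2. The rule selects them by gene symbol and not by a threshold on their values, although the list was drawn up with earlier results of these data known. Each was followed across cells grouped by the marker genes of their lineage. The list holds 7 ligands and 2 receptors and no neurotrophin, so the neurotrophic factors were taken from a wider list of 96 guidance and neurotrophic genes that contains these 9.

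Class 3 semaphorins bind neuropilins, which signal together with plexins. Netrins bind Dcc, neogenin (Neo1) and the Unc5 receptors, and Slit proteins bind Robo receptors. Outside the nervous system these cues act on vessels and sensory nerves as well as on bone cells: Sema3a is known as a regulator of bone remodelling, Slit3 as an osteoblast-derived factor that acts on bone vessels, and netrin-1 as a regulator of osteoclasts.

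The cells were bone-lining cells (BLCs), obtained by collagenase digestion of femora, tibias and iliac bones of wild-type mice. They were sorted as CD45-Ter119-CD31- Alcam+Sca-1- and profiled by droplet single-cell RNA-seq of transcript 3′ ends. The study's methods list C57BL/6JJcl mice and give 6 to 12 weeks as the age of the mice in its experiments. Its single-cell section names neither strain nor age. All 3 libraries belong to the same group and are labelled wild type and bone marrow. There is no second condition, and the comparisons below set cells of different lineage against each other within these libraries. Of 20307 barcodes (2606, 7172 and 10529 in libraries 1, 2 and 3), a total that differs from the cell number stated in the study, 2476, 6363 and 9393 were kept as cells, at a median of 5614, 9704 and 5814 unique molecular identifiers (UMIs) per cell. Libraries 1 and 2 shared 5 barcodes, libraries 1 and 3 shared 9, and libraries 2 and 3 shared 28.

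Most of the sorted cells carried cartilage genes: 319, 5240 and 7655 cells of libraries 1, 2 and 3 passed the cartilage-like gate (Col2a1, Acan and related genes). The osteoblast-like gate (Bglap, Col1a1, Ifitm5) held 43, 290 and 417 cells. The gate for Cxcl12-abundant reticular (CAR-like) cells, the perivascular stroma of the marrow, held 601, 81 and 104 cells. The tendon-like gate held 85, 60 and 64 cells and the fibroblast-like gate 32, 25 and 25. Haematopoietic gates still held 374, 139 and 236 cells despite the sort, and they serve here as the background for genes that blood cells should lack. Library 1 stood apart: 34.0% of its cells passed no gate, against 7.76% and 9.21%, and CAR-like cells outnumbered its cartilage-like cells. No gate used any of the 9 genes. Levels are given in CPM, the UMIs of a gene per 1000000 UMIs of the cells in 1 gate and library.

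The 9 genes differed in abundance and in where their transcripts lay. Sema3d was seen in 6740 of 18232 cells (15984 UMIs), Robo1 in 4393, Sema3e in 3605, Ntn1 in 2960, Sema3c in 2182, Slit3 in 1790, Slit2 in 1407, Robo2 in 670 and Sema3a in 284 (423 UMIs). Cartilage-like cells made up 72.5% of all cells and held 87.3% of the Sema3e UMIs, 83.4% of those of Sema3c and 82.7% of those of Sema3d. They held 21.6% of the Slit2 UMIs, 15.2% of those of Slit3 and 19.0% of those of Robo2. Osteoblast-like cells were 4.11% of all cells and held 63.4% of the Robo2 UMIs, 26.6% of those of Slit2 and 23.9% of those of Slit3. These pooled shares weight libraries by their size. Depth differed too, at a pooled median of 7541.5 UMIs in cartilage-like and 2382.5 in osteoblast-like cells. A gate's share of cells is thus not its share of all UMIs. The levels below are therefore given in CPM, library by library.

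**Figure D1:**
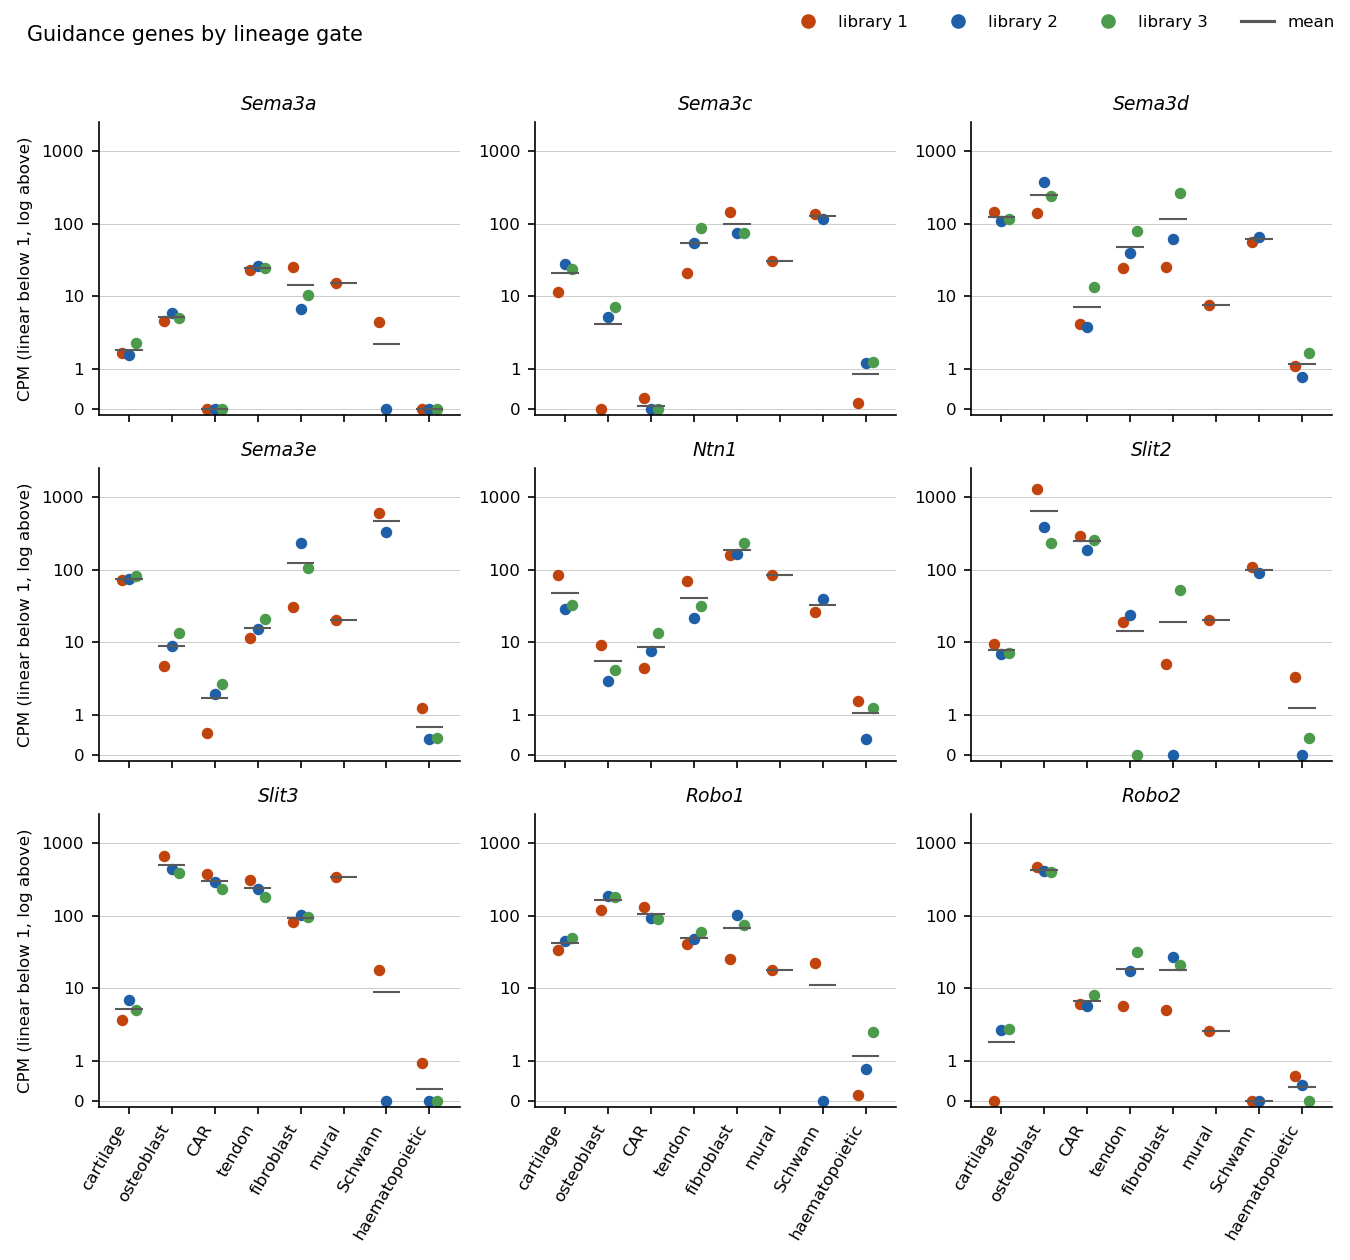
Level of each gene (y axis, CPM, linear below 1 and logarithmic above) in the lineage gates (x axis), with 1 point for each library that had at least 20 cells in the gate and a bar for the mean. Robo2 sits near 427 CPM in osteoblast-like cells and at or below 31.3 CPM in each library of the other gates, whereas Slit3 is high in the osteoblast-, CAR-, tendon- and mural-like gates.

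The mean levels of the Slit genes and Robo2 were highest in osteoblast-like cells. To show the sequence context of these genes, the 250 bases before their annotated starts (RefSeq, build GRCm38.p6, gene strand) are printed with the GC box motif GGGCGG and the TATA box motif TATAAA in capitals, on either strand.
Slit2, chr5:47982905-47983154, plus strand: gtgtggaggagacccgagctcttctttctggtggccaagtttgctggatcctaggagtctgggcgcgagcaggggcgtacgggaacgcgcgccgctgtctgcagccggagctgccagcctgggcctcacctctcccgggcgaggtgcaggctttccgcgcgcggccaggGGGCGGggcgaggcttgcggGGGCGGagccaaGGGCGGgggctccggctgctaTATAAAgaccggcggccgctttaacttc
Slit3, chr11:35121206-35121455, plus strand: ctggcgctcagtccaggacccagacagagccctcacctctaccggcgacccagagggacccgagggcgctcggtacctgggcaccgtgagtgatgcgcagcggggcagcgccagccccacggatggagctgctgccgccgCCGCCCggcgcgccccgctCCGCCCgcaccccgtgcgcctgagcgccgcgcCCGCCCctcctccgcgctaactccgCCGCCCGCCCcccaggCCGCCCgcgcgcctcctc
Robo2, chr16:74411826-74412075, minus strand: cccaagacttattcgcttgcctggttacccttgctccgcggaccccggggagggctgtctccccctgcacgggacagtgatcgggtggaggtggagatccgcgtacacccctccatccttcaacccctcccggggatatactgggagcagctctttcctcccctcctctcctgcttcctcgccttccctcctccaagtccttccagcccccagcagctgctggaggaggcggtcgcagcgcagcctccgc

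In windows of 300 bases around the start (250 before, 50 after), the Slit2 promoter held 3 GC boxes and 1 TATA box and the Slit3 promoter held 6 GC boxes, 2 of which overlap. Robo2 has 3 annotated starts in this table, and none of their windows held either motif. GC boxes occur in 35.7% and TATA boxes in 13.6% of all 32851 promoters. The RUNX core TGTGGT, present in 16.8% of all promoters, was found in none of these windows and, among the 8 genes of the list with an entry, only in that of Sema3a. CpG dinucleotides numbered 42 in the Sema3c window, 41 in that of Slit3 and 30 in that of Slit2, against a median of 7 over all promoters, and 2 in that of Sema3a. A match describes the sequence and does not show that a factor binds there. The genes themselves are long: Slit2 spans chr5:47983138-48307733 and Slit3 spans chr11:35121224-35708507, both on the plus strand. Ntn1 spans chr11:68209364-68400823 on the minus strand, Robo1 chr16:72308306-73046095 on the plus strand and Robo2 chr16:73891839-74411825 on the minus strand. Sema3d, Sema3a, Sema3e and Sema3c lie in that order on chromosome 5, between positions 12383385 and 17730268. All 9 are protein-coding genes, with spans from 156 to 737.8 kb (GENCODE M21, GRCm38).

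Slit2, a secreted repellent of growing axons, reached 1296 CPM in the osteoblast-like cells of library 1, 388 CPM in library 2 and 237 CPM in library 3 (640 ± 573, mean ± SD, n = 3). In CAR-like cells it lay at 293, 184 and 258 CPM. The osteoblast-like level was above the CAR-like level in libraries 1 and 2 and below it in library 3, so the order of these gates did not hold in every library. The level in library 1 rested on few cells, since 3 of its 43 osteoblast-like cells held 51.3% of the Slit2 UMIs of the gate. In the same sum the tendon-like markers added to 1566 CPM, against 112 and 105 CPM in libraries 2 and 3. The fibroblast-like markers added to 590 CPM there (39.4 and 31.8 CPM in libraries 2 and 3), those of B and plasma cells to 437 CPM (0.744 and 3.07 CPM) and those of myeloid cells to 297 CPM (34.2 and 41.0 CPM), while the osteoblast-like markers themselves added to 64300 CPM, against 156151 and 153360 CPM. The cartilage-like markers went the other way, at 2235 CPM in library 1 and 5466 and 6615 CPM in libraries 2 and 3. In the CAR-, tendon- and fibroblast-like sums they added to 141 to 303 CPM in library 1. In libraries 2 and 3 they added to 1674 to 2613 CPM in these sums. Markers of B and plasma cells added to 273 to 955 CPM in the cartilage-, CAR-, tendon- and fibroblast-like sums of library 1. In libraries 2 and 3 they added to at most 16.9 CPM in these gates. The part of such mixture in the levels of any library, for Slit2 and for the other genes, was not tested. Cartilage-like cells held 9.45, 6.95 and 7.11 CPM, and no library of theirs reached the lowest CAR-like or osteoblast-like value. Tendon-like and fibroblast-like cells lay between 0 and 52.7 CPM, and their ranges overlapped.

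Against the mean of the other mesenchymal gates, Slit2 was higher in osteoblast-like cells (log2 fold change 4.72 ± 0.34 SE, edgeR adjusted p = 1.84e-08) and in CAR-like cells (2.81 ± 0.37, adjusted p = 1.53e-05), in 3 of 3 libraries each. Without library 1 the osteoblast-like difference was 4.03. In cartilage-like cells Slit2 was lower by a log2 fold change of -2.83 ± 0.54 (adjusted p = 0.000444), a call that was lost when only cells of at least 3000 UMIs were used (adjusted p = 0.0821). The tendon-like call (-2.18 ± 0.62, adjusted p = 0.024) was lost without library 3 (adjusted p = 0.281), with cells of at least 3000 UMIs (adjusted p = 0.333) and without the CAR-like gate (adjusted p = 0.145). These fits set each gate against the mean log level of the other 4 gates, so they answer whether a gate departs from the rest, not which gate is highest.

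Slit3 was spread over more lineages than Slit2. It lay at 660, 444 and 383 CPM in osteoblast-like cells (496 ± 145), at 375, 294 and 236 CPM in CAR-like cells and at 314, 232 and 181 CPM in tendon-like cells. Every osteoblast-like value exceeded the CAR-like values, and the CAR-like and tendon-like ranges overlapped. Library 1 was the highest of the 3 in each of these gates, and its sums held markers of other lineages as given above. Myeloid markers added to 1223 CPM in its CAR-like sum, against 125 and 88.5 CPM in libraries 2 and 3. In the tendon-like sums they added to 47.9, 30.6 and 48.7 CPM. Mural-like cells, the smooth muscle and pericytes of vessels, numbered at least 20 only in library 1 and held 338 CPM there (95% exact Poisson interval 283 to 400, which covers counting error only). In that sum the markers of B and plasma cells added to 4510 CPM. Fibroblast-like cells lay lower, at 80.8, 102 and 94.8 CPM. Cartilage-like cells were the lowest mesenchymal gate by a wide margin, at 3.70, 6.90 and 5.04 CPM.

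Slit3 was higher in osteoblast-like (log2 fold change 2.96 ± 0.15, adjusted p = 2.82e-10), CAR-like (1.57 ± 0.16, adjusted p = 9.15e-07) and tendon-like cells (1.18 ± 0.17, adjusted p = 0.000105), and lower in cartilage-like cells (-5.08 ± 0.23, adjusted p = 3.22e-10). All 4 calls held under every alternative tried. No alternative left out the cartilage-like gate, whose low level enters the mean of the others in the osteoblast-, CAR- and tendon-like fits. Whether these differences remain without it was not tested. The fibroblast-like difference of -0.63 ± 0.24 did not pass (adjusted p = 0.12). The predicted genes Gm20475 and Gm12122, which overlap Slit2 and Slit3 on the same strand, drew 0 and 25 UMIs.

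The share of cells with a Slit3 UMI was 79.1%, 66.6% and 48.9% in osteoblast-like cells, at median depths of 4810, 3288 and 1773 UMIs. In haematopoietic cells, which were deeper (10942, 17604 and 9540 UMIs), it was 1.60%, 0% and 0%. For thinning, cells under 1000 UMIs were left out, which were 1, 11 and 68 osteoblast-like cells of libraries 1, 2 and 3. When the remaining cells were thinned to 1000 UMIs each, the osteoblast-like share still lay between 32.6% and 42.9%. The corresponding Slit2 share was 30.5% to 76.7% before and 17.2% to 40.5% after thinning, against at most 1.60% and 0% in haematopoietic cells.

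Robo2, a receptor for Slit proteins, was high in a single lineage gate. It lay at 469, 416 and 395 CPM in osteoblast-like cells (427 ± 38.4, n = 3), and the 3 libraries lay close together. In library 1, 57.4% of the UMIs came from 3 cells. No other lineage gate with at least 20 cells exceeded 31.3 CPM, the tendon-like value of library 3. CAR-like cells, which shared the high Slit levels, held 6.11, 5.76 and 8.05 CPM, and 132 Schwann-like cells held no Robo2 UMI, which allows up to 11.3 CPM (exact Poisson). Robo2 was also among the 10 genes with the largest fold of the osteoblast-like gate over the cells of all other gates. The gate's own markers Bglap, Col1a1 and Ifitm5 were among these 10 as well.

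The Robo2 difference of osteoblast-like cells was a log2 fold change of 6.06 ± 0.25 (adjusted p = 2.17e-11), the 39th largest of 8540 genes tested. It ranged from 5.77 to 6.80 over all alternatives. Cartilage-like cells were lower (-3.54 ± 0.41, adjusted p = 3.32e-06), as were CAR-like cells (-1.78 ± 0.44, adjusted p = 0.00475). The CAR-like call was lost without library 2 (adjusted p = 0.115) or library 3 (adjusted p = 0.0552). The share of osteoblast-like cells with a Robo2 UMI was 44.2%, 47.9% and 43.9%, against 1.07%, 0.719% and 0% of haematopoietic cells, and 16.7% to 26.4% after thinning.

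Robo1, the other Slit receptor of the list, was present in every mesenchymal gate. Osteoblast-like cells held 121, 184 and 181 CPM, CAR-like cells 133, 92.2 and 88.5 CPM, fibroblast-like cells 25.3, 102 and 73.7 CPM, tendon-like cells 40.2, 48.1 and 59.1 CPM and cartilage-like cells 33.3, 45 and 49.1 CPM. The ranges of neighbouring gates overlapped at each of these steps. Haematopoietic cells held 0.157 to 2.51 CPM. Robo1 was higher in osteoblast-like cells (log2 fold change 1.76 ± 0.23, adjusted p = 1.55e-05), and this call held under every alternative. The lower levels in cartilage-like (-0.74 ± 0.23, adjusted p = 0.0164) and tendon-like cells (-0.99 ± 0.29, adjusted p = 0.0295) were both lost without library 2 or without library 3, with adjusted p from 0.107 to 0.281. Both were also lost with cells of at least 3000 UMIs (adjusted p = 0.0945 and 0.149). The cartilage-like call was lost without the filter on low counts (adjusted p = 0.0631), and the tendon-like call at a gate margin of 0 (adjusted p = 0.072). The CAR-like value of 0.52 ± 0.24 did not pass (adjusted p = 0.105), and it was positive in 1 of 3 libraries.

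Among osteoblast-like cells, 93.0%, 76.9% and 61.9% held a UMI of Slit2 or Slit3 and 58.1%, 62.4% and 56.8% one of Robo1 or Robo2. A UMI of Slit2 or Slit3 together with one of Robo1 or Robo2 was seen in 53.5%, 55.9% and 41.2% of these cells. Whether both kinds occur together more often than their separate shares give was not tested. In CAR-like cells the shares with both were 30.9%, 22.2% and 16.3%, although these cells were deeper, at 5867, 6509 and 3792 UMIs. In cartilage-like cells they were 0.940%, 2.86% and 1.63%, and 79.3%, 62.7% and 72.9% of these cells held neither kind. Every osteoblast-like library lay above every CAR-like one. These shares are descriptive, since cells of 1 library are not replicates.

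**Figure D2:**
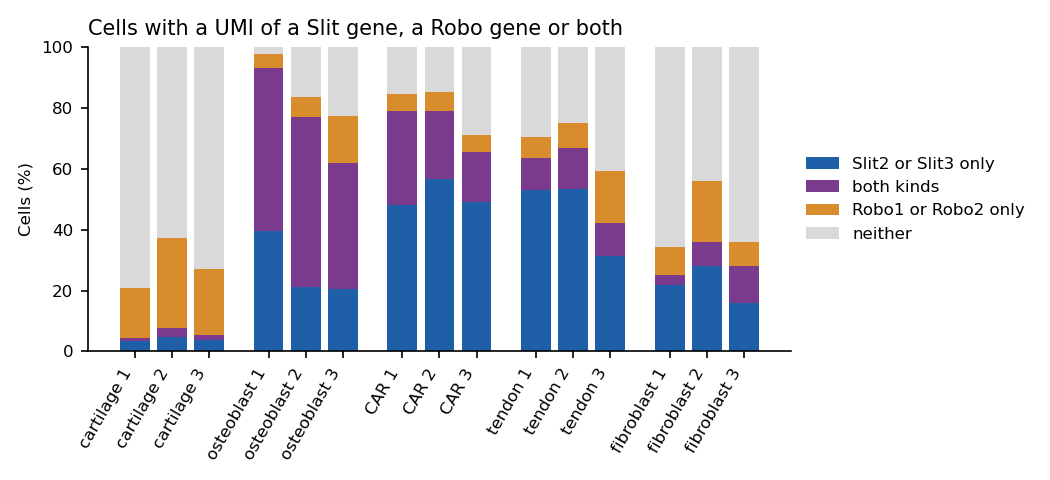
Percentage of cells (y axis) in each mesenchymal gate and library (x axis, numbers give the library) with a UMI of Slit2 or Slit3 only, of Robo1 or Robo2 only, of both kinds or of neither. The share with both kinds reaches 41.2% to 55.9% in osteoblast-like cells and stays under 3% in cartilage-like cells.

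The class 3 semaphorins differed among themselves by lineage. Sema3d, a class 3 semaphorin that acts on endothelial and neural crest cells, was the member seen in the most cells. It lay at 145, 108 and 115 CPM in cartilage-like cells and at 139, 373 and 240 CPM in osteoblast-like cells. Fibroblast-like cells spanned 25.3 to 263 CPM and tendon-like cells 24.9 to 80.0 CPM, and both ranges overlapped their neighbours. CAR-like cells stood below all of these at 4.17, 3.84 and 13.4 CPM. The osteoblast-like level was below the cartilage-like one in library 1 and above it in libraries 2 and 3.

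Sema3d was higher in osteoblast-like cells (log2 fold change 2.92 ± 0.36, adjusted p = 1.03e-05) and lower in CAR-like cells (-4.35 ± 0.58, adjusted p = 1.78e-05), and both calls held under every alternative. The cartilage-like difference of 1.68 ± 0.35 (adjusted p = 0.000881) fell to 0.60 and was no longer called when the CAR-like gate was left out of the comparison (adjusted p = 0.231). Between 38.3% and 48.6% of cartilage-like cells held a Sema3d UMI, 9.49% to 10.5% after thinning, against 1.34% to 1.69% of haematopoietic cells before and at most 0.28% after it.

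Sema3e, which signals through plexin D1 and is known to guide vessels, was highest in Schwann-like cells, followed by fibroblast-like and cartilage-like cells, whose ranges overlapped. Cartilage-like cells held 71.1, 73.5 and 81.1 CPM (75.2 ± 5.24), with little spread between libraries. Schwann-like cells, the glia of peripheral nerves, held 610 CPM in library 1 (96 cells, 139 UMIs) and 326 CPM in library 2 (21 cells, 25 UMIs), both above every mesenchymal value. Fibroblast-like cells spanned 30.3 to 230 CPM. Osteoblast-like cells held 4.65, 8.92 and 13.3 CPM and CAR-like cells at most 2.68 CPM. Sema3e was higher in cartilage-like cells (log2 fold change 3.01 ± 0.30, adjusted p = 5.8e-07) and in fibroblast-like cells (3.19 ± 0.44, adjusted p = 0.000111) and lower in CAR-like cells (-5.11 ± 0.65, adjusted p = 9.24e-06). All 3 calls held under every alternative that could be fitted. Schwann-like cells were not part of the fits.

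Sema3c, a ligand of neuropilins in heart and vessel development, was highest in Schwann-like (136 and 117 CPM) and fibroblast-like cells (146, 74.5 and 73.7 CPM), whose ranges overlapped. In fibroblast-like cells 3 cells gave 65.5% of the UMIs of library 1 and all 7 UMIs of library 3. Tendon-like cells held 21.1, 54.7 and 86.9 CPM and cartilage-like cells 11.5, 27.8 and 24.2 CPM. The tendon-like range overlapped those of both the fibroblast-like and the cartilage-like cells. CAR-like cells held 1 Sema3c UMI among 786 cells, and the mean level of the other 4 gates was 200 times the pooled CAR-like level (counting interval 35.8 to 7882). The fitted difference of fibroblast-like cells was a log2 fold change of 3.90 ± 0.48 (adjusted p = 4.26e-05) with the CAR-like gate and 2.36 without it (adjusted p = 0.0034). The near absence from CAR-like cells weighed on the other fits. In tendon-like cells the difference was 2.50 ± 0.46 with that gate and 0.88 without it (adjusted p = 0.161), and in cartilage-like cells it was 1.42 ± 0.41 with it and -0.31 without it (adjusted p = 0.5). The cartilage-like call was also lost without library 2 (1.11, adjusted p = 0.152), without doublet removal (0.63, adjusted p = 0.115) and without the cell filter (0.63, adjusted p = 0.112).

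Sema3a, the founding class 3 semaphorin and a repellent of sensory axons, was the scarcest member. It lay at 23.0, 26.2 and 24.3 CPM in tendon-like cells, on 12, 12 and 7 UMIs. Fibroblast-like cells held 25.3, 6.78 and 10.5 CPM on 5, 1 and 1 UMIs, osteoblast-like cells 4.65, 5.95 and 5.12 CPM, and cartilage-like cells 1.64, 1.58 and 2.26 CPM. No Sema3a UMI was found in 786 CAR-like cells, so the mean of the other gates was at least 17.1-fold higher than the level that 3 UMIs over all CAR-like cells would give. The tendon-like difference was called with the CAR-like gate (log2 fold change 4.0 ± 0.57, adjusted p = 0.000177) and without it (1.91, adjusted p = 0.00664). The fibroblast-like call (adjusted p = 0.043) was lost without any 1 library, with adjusted p from 0.145 to 0.577. Without the CAR-like gate it was lost too (0.97, adjusted p = 0.424). The same held without doublet removal, the cell filter or the filter on low counts, at a gate score of 0.15 and with cells of at least 3000 UMIs (adjusted p from 0.0535 to 0.161). The gate with the densest Sema3a signal was too small for the fits: 10 endothelial-like cells of library 2 held 12 UMIs and 9 of library 3 held 7, while 6 of library 1 held none.

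Ntn1, which encodes netrin-1, was highest in fibroblast-like cells at 162, 163 and 232 CPM (185 ± 40.2), and no other gate with at least 20 cells reached these values. Mural-like cells of library 1 held 83.8 CPM (exact Poisson interval 57.7 to 118). Cartilage-like cells held 83.8, 29.1 and 32.5 CPM and tendon-like cells 70.9, 21.9 and 31.3 CPM, with library 1 the highest in both. The cartilage-like sum of library 1 held 10618 CPM of the cartilage-like markers, against 55297 and 46745 CPM in libraries 2 and 3. The part of this difference in the Ntn1 level was not tested. Osteoblast-like and CAR-like cells lay between 2.97 and 13.4 CPM. Ntn1 was higher in fibroblast-like cells (log2 fold change 3.42 ± 0.38, adjusted p = 1.34e-05) and lower in CAR-like (-3.03 ± 0.52, adjusted p = 0.000202) and osteoblast-like cells (-2.55 ± 0.55, adjusted p = 0.00204). The first 2 calls held under every alternative that could be fitted, and the osteoblast-like one was lost when sums of fewer than 50 cells were left out (adjusted p = 0.0725). The cartilage-like difference of 1.43 ± 0.29 was not called without the CAR-like gate (adjusted p = 0.0592). Gm12305, a predicted gene on the strand of Ntn1, drew 33 UMIs against 5098 for Ntn1.

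**Figure D3:**
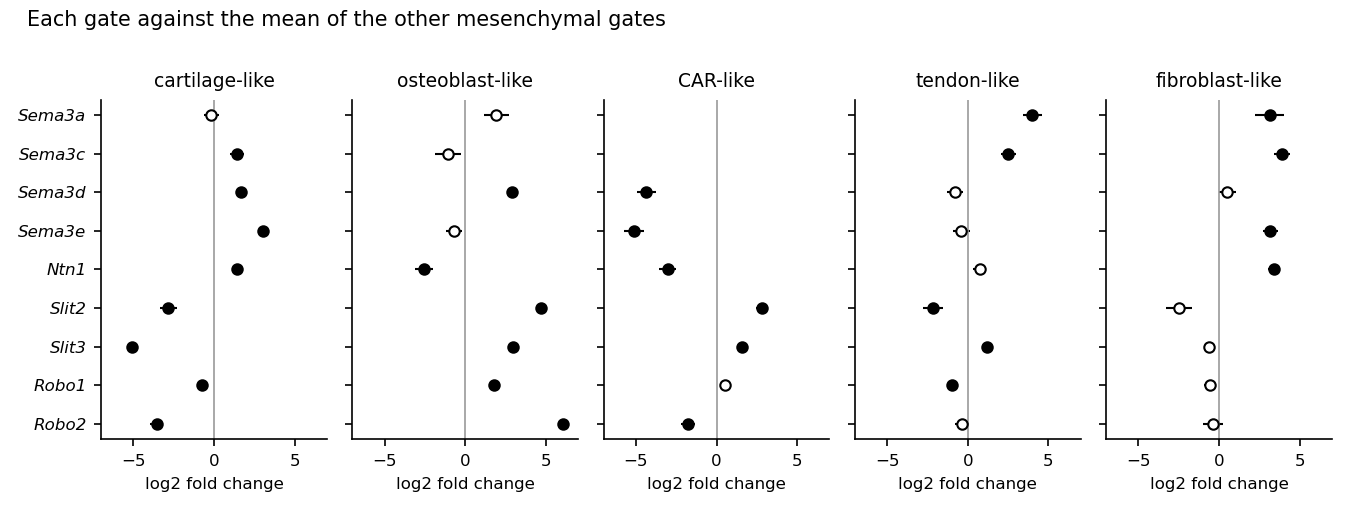
Log2 fold change (x axis) of each gene in 1 gate against the mean of the other 4 mesenchymal gates, from 15 summed counts of 3 libraries. Bars are 1 SE and filled points passed an adjusted p of 0.05 (edgeR). Sema3a and Sema3c in CAR-like cells, with 0 and 1 UMIs, are not drawn. The Slit genes and Robo2 lie to the right in osteoblast-like cells and to the left in cartilage-like cells.

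Of the 9 genes, 8 were called in cartilage-like cells (4 higher, 4 lower), 6 in osteoblast-like cells (5 higher, 1 lower), 8 in CAR-like cells (2 higher, 6 lower), 5 in tendon-like cells (3 higher, 2 lower) and 4 in fibroblast-like cells (all higher). Calls were common among all 8540 genes tested: 46.3% were called in cartilage-like cells, 33.9% in osteoblast-like cells, 34.4% in CAR-like cells, 14.7% in tendon-like cells and 8.88% in fibroblast-like cells. The median log2 fold change of the 9 genes was -0.16, 1.93, -3.03, -0.36 and 0.53 in these 5 gates, and that of all genes lay between -0.04 and 0.04. Genes longer than 200 kb, the class to which most of the 9 belong, gave 6.68% to 8.47% of the UMIs of osteoblast-like cells, 7.31% to 11.3% of those of CAR-like cells and 5.40% to 5.95% of those of cartilage-like cells. The part of this difference in the results was not tested.

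The cartilage-like cells were divided further by markers known from zones of cartilage. The Prg4/Cilp gate (articular surface genes) held 90, 643 and 1036 cells of libraries 1, 2 and 3, and the Wif1/Cytl1/Myoc gate 94, 1384 and 2348. The Matn1/Matn3/Prkg2 gate held 1545 and 1629 cells of libraries 2 and 3, the Ihh/Col10a1/Ibsp gate (hypertrophic genes) 33 and 30, and the Lef1/Notum/Sfrp5 gate 97 and 146. Library 1 had 4 or 5 cells in each of the last 3 gates, too few to enter. Ibsp was among the 10 leading genes of the Wif1/Cytl1/Myoc gate and not among those of the Ihh/Col10a1/Ibsp gate, so Ibsp alone does not mark the latter.

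**Figure D4:**
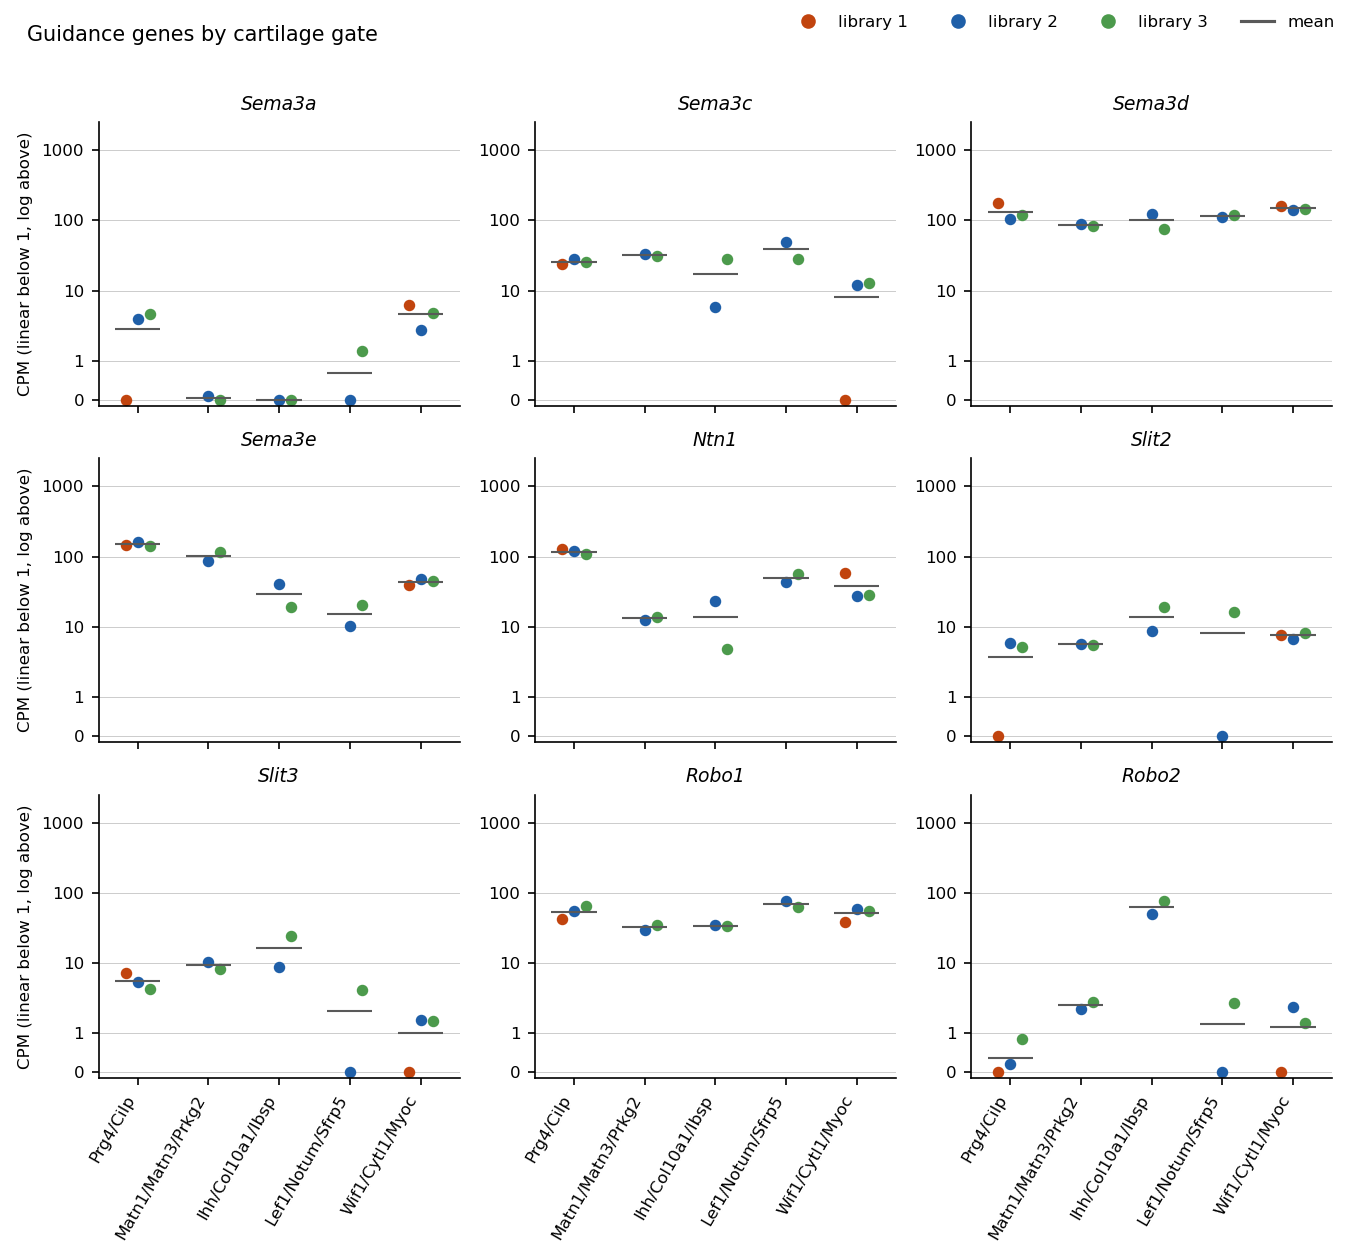
Level of each gene (y axis, CPM, linear below 1 and logarithmic above) in 5 cartilage gates (x axis), with 1 point for each library that had at least 20 cells and a bar for the mean. Ntn1 and Sema3e are highest in the Prg4/Cilp gate and Robo2 in the Ihh/Col10a1/Ibsp gate, while Sema3d varies little.

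Within cartilage, Sema3e and Ntn1 were highest in the Prg4/Cilp gate. Sema3e lay there at 145, 161 and 141 CPM (149 ± 10.3), above the 86.8 and 118 CPM of the Matn1/Matn3/Prkg2 gate, the 38.8 to 48.7 CPM of the Wif1/Cytl1/Myoc gate and the 10.4 and 20.4 CPM of the Lef1/Notum/Sfrp5 gate. Ntn1 lay at 127, 119 and 107 CPM (118 ± 9.68), and no other cartilage gate exceeded 58.9 CPM. Neither range overlapped that of the gate below it. The differences from the other cartilage gates were a log2 fold change of 2.04 ± 0.15 for Sema3e (adjusted p = 4.22e-09) and 2.30 ± 0.13 for Ntn1 (adjusted p = 1.16e-10), and both held under every alternative. The Matn1/Matn3/Prkg2 gate was higher in Sema3e (1.15 ± 0.16, adjusted p = 1.01e-05) and lower in Ntn1 (-1.68 ± 0.25, adjusted p = 2.38e-05), and the latter was not called without library 2 (adjusted p = 0.129). Sema3e was lower in the Lef1/Notum/Sfrp5 gate (-2.37 ± 0.35, adjusted p = 8.65e-05).

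Robo2, at 1.81 ± 1.56 CPM over all cartilage-like cells, stood out in the Ihh/Col10a1/Ibsp gate at 49.0 and 76.3 CPM. The difference was a log2 fold change of 5.43 ± 0.54 (adjusted p = 2.48e-06), the 19th largest of 12675 genes tested, and it was called under every alternative that could be fitted. It rested on 17 and 16 UMIs. In library 3, all 16 came from 2 of 30 cells, and in library 2, 8 of 33 cells held the 17. Col1a1 and Spp1, genes of osteoblasts as well, were among the 10 leading genes of this gate, and their part in the Robo2 level was not tested. In the other cartilage gates Robo2 lay between 0 and 2.75 CPM.

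Sema3d and Robo1 were present in every cartilage gate. Sema3d lay between 76.3 and 177 CPM in every gate and library. It was higher in the Wif1/Cytl1/Myoc gate by a log2 fold change of 0.61 ± 0.11 (adjusted p = 0.000806) and lower in the Matn1/Matn3/Prkg2 gate, at -0.54 ± 0.13 (adjusted p = 0.00193). The first call was lost without library 3 (adjusted p = 0.332) and the other without library 2 (0.145) or library 3 (0.118). Robo1 lay between 29.5 and 77.1 CPM. It was lower in the Matn1/Matn3/Prkg2 gate (-0.81 ± 0.14, adjusted p = 8.63e-05), a call lost without library 2 (adjusted p = 0.0919). It was higher in the Prg4/Cilp (0.46 ± 0.13) and Wif1/Cytl1/Myoc gates (0.52 ± 0.11), and both of these calls were lost without library 2, without library 3 and without the replicate block, with adjusted p from 0.0589 to 0.337. Sema3c was highest in the Lef1/Notum/Sfrp5 (48.9 and 28.6 CPM) and Matn1/Matn3/Prkg2 gates (33.4 and 31.0 CPM), whose ranges overlapped. Its call in the Matn1/Matn3/Prkg2 gate (0.56 ± 0.20) was lost without library 2 or 3, without the block (adjusted p = 0.13) and with DESeq2 (adjusted p = 0.332), and its lower level in the Wif1/Cytl1/Myoc gate (-0.90 ± 0.27) was lost without library 2 or 3 and without the block (adjusted p = 0.0911). Slit2 and Slit3 stayed at or under 19.1 and 23.9 CPM in every cartilage gate. Slit3 was called higher in the Matn1/Matn3/Prkg2 gate (1.19 ± 0.29) and lower in the Wif1/Cytl1/Myoc gate (-1.82 ± 0.49). Without library 2 these values were 0.62 and -2.30, and neither was called. The first call was also lost with DESeq2 (adjusted p = 0.0565). The other was also lost without doublet removal, without the cell filter, with at least 50 cells per sum and with cells of at least 3000 UMIs (adjusted p from 0.0552 to 0.0788). Sema3a was found mainly in the Wif1/Cytl1/Myoc gate (6.20, 2.76 and 4.82 CPM) and in the Prg4/Cilp gate of libraries 2 and 3 (3.91 and 4.67 CPM), against 3 UMIs among 3179 cells of the Matn1/Matn3/Prkg2 gate and none among 67 of the Ihh/Col10a1/Ibsp gate. No fitted fold change is given for Sema3a here because of these low counts. Its calls in the Prg4/Cilp and Wif1/Cytl1/Myoc gates nevertheless enter the counts of called genes below.

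The Prg4/Cilp gate had 5 of the 9 genes called (4 higher, 1 lower), the Matn1/Matn3/Prkg2 gate 6 (3 higher, 3 lower), the Wif1/Cytl1/Myoc gate 5 (3 higher, 2 lower), and the Ihh/Col10a1/Ibsp and Lef1/Notum/Sfrp5 gates 1 each. Among all 12675 genes tested, 33.5%, 43.9%, 16.7%, 4.63% and 18.3% were called in these 5 gates, in the same order. Median log2 fold changes of the 9 genes were 0.43, -0.54, 0.03, -0.62 and -0.0048, against 0.11, 0.06, 0.05, -0.11 and 0.08 over all genes.

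The receptors to which these ligands bind were distributed by lineage as well. Nrp2, a neuropilin, lay at 944 to 1212 CPM in osteoblast-like cells (1058 ± 139) and was higher there (log2 fold change 3.09 ± 0.18, adjusted p = 1.33e-09). Nrp1 (470 ± 140 CPM) and the plexins Plxna2 (425 ± 52.4 CPM) and Plxnd1 (81.1 ± 17.6 CPM) were higher in CAR-like cells, by 2.68 ± 0.34, 4.21 ± 0.18 and 3.65 ± 0.24. In the same CAR-like cells none of the 4 class 3 semaphorins of the list exceeded 13.4 CPM. Plxna1 lay at 22.5 and 19.2 CPM in CAR-like and osteoblast-like cells and was called higher in both, and Plxna4 reached 190 CPM in Schwann-like cells. Of the netrin receptors, Unc5b was higher in osteoblast-like cells (202 ± 78.6 CPM, 3.69 ± 0.21, adjusted p = 1.06e-09). Unc5c lay at 153 CPM in cartilage-like, 144 CPM in osteoblast-like and 110 CPM in CAR-like cells and was called higher in each. Neo1 lay between 63.7 and 141 CPM in the 5 mesenchymal gates. Dcc gave 34 UMIs in osteoblast-like cells and 10 in cartilage-like cells, Plxna3 lay at or under 3.78 CPM, and both were too low to be tested. Robo4, the Robo gene of endothelium, gave 0 UMIs in the 5 mesenchymal gates.

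**Figure D5:**
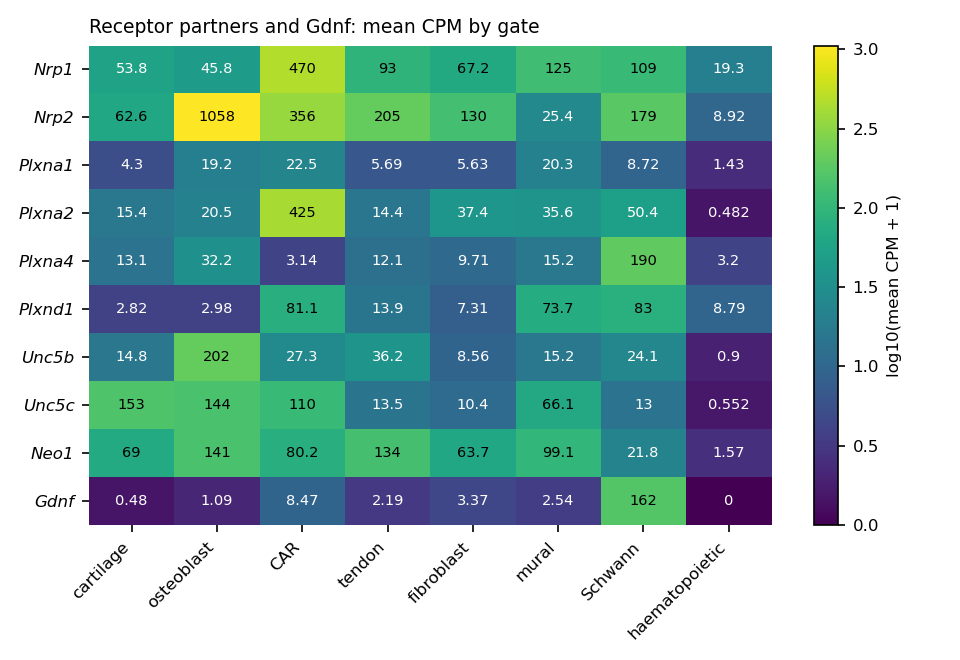
Mean level over libraries (number in each cell, CPM; colour, log10 of mean CPM plus 1) of receptor partners and Gdnf (rows) in the lineage gates (columns). Nrp2 is highest in osteoblast-like cells at 1058 CPM, Nrp1 and Plxna2 in CAR-like cells at 470 and 425 CPM, and Gdnf in Schwann-like cells at 162 CPM.

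Across the 87 other genes of the wider list, 51 were abundant enough to be tested among the mesenchymal gates. Of these, 28 were called in cartilage-like cells (14 higher), 29 in osteoblast-like cells (17 higher), 34 in CAR-like cells (19 higher), 20 in tendon-like cells (12 higher) and 15 in fibroblast-like cells (10 higher). These are 54.9%, 56.9%, 66.7%, 39.2% and 29.4% of those tested, beside 46.3%, 33.9%, 34.4%, 14.7% and 8.88% of all genes. In the cartilage gates 56 were tested, of which 30 were called in the Prg4/Cilp gate (8 higher, 22 lower), 29 in the Matn1/Matn3/Prkg2 gate (19 higher), 21 in the Wif1/Cytl1/Myoc gate (11 higher), 18 in the Lef1/Notum/Sfrp5 gate (17 higher) and 4 in the Ihh/Col10a1/Ibsp gate (all higher). These are 53.6%, 51.8%, 37.5%, 32.1% and 7.14% of those tested, beside 33.5%, 43.9%, 16.7%, 18.3% and 4.63% of all genes.

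Among ligands outside the 9 genes, Sema4d, a membrane semaphorin known as an osteoclast product that inhibits osteoblasts, lay at 127 ± 22.6 CPM in osteoblast-like cells (log2 fold change 5.44 ± 0.37, adjusted p = 9.24e-09), and its receptor Plxnb1 at 32.9 ± 4.84 CPM (4.57 ± 0.47). Sema3b was higher in osteoblast-like (29.8 CPM) and tendon-like cells (35.5 CPM) and reached 190 CPM in Schwann-like cells. Ntn4, a netrin of basement membranes, was higher in cartilage-like (134 CPM, 3.05 ± 0.28) and fibroblast-like cells (141 CPM, 2.72 ± 0.41), and within cartilage in the Prg4/Cilp gate (305 CPM, 3.45 ± 0.13), which is also where Ntn1 and Sema3e were highest. Ntng1 (86.7 CPM, against 169 CPM in Schwann-like cells) and the ephrin receptor Epha7 (155 CPM) were higher in tendon-like cells, and Ephb2 in cartilage-like cells (86.8 CPM).

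The neurotrophic factors also differed by lineage. Bdnf lay at 37.0 ± 9.10 CPM in tendon-like cells and at or under 1.52 CPM in the other mesenchymal gates, and Ntf3 at 27.3 CPM in tendon-like and 19.1 CPM in fibroblast-like cells. Gdnf (162 CPM) was found mainly in Schwann-like cells and was too low elsewhere to be tested. Gfra1 and Ret, which together receive Gdnf, were higher in the Lef1/Notum/Sfrp5 cartilage gate, at 285 and 83.3 CPM (2.60 ± 0.14 and 1.90 ± 0.22).

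The genes whose levels were most like those of each member were sought among 6442 genes over the 15 sums of mesenchymal gates and libraries, after centring within each library. Slit2 was nearest to Rnf150, Vdr and Ptprm (Pearson r = 0.955, 0.951 and 0.933) and Slit3 to Ptprg, Asap1 and Dleu2 (0.972, 0.968 and 0.965). Robo2 was nearest to Lars2, Farp2 and Ptprs (0.966, 0.965 and 0.962) and Robo1 to Zfp608, Gtf2i and Car3 (0.939, 0.929 and 0.918). Sema3e was nearest to Ntn4, Creb5 and Cdon (0.966, 0.938 and 0.928), Sema3c to Hcfc1r1, S100a6 and Bnc2 (0.958, 0.944 and 0.941), Sema3a to Tmem158, Ptn and Zfp462 (0.953, 0.952 and 0.946), Ntn1 to Vwa1, Mrps23 and Anxa7 (0.966, 0.940 and 0.940) and Sema3d to Rpl41, Nme2 and Raph1 (0.913, 0.904 and 0.898). These correlations describe 15 sums of 5 gates that share libraries and depth, and carry no test.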

How the data were processed

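Droplet 3′ single-cell RNA-seq of 3 libraries of 1 group was analysed. The authors aligned reads to mm10 and counted UMIs with Cell Ranger 7.1.0, and the deposited tables hold raw counts per gene and barcode. Whether intronic reads were counted is not given in the sources used here, and the members are long genes. Barcodes were dropped under 200 genes or above 20% mitochondrial UMIs, and the highest Scrublet scores (scanpy 1.11.5) were removed at 0.8% per 1000 cells. A cell joined a gate when its mean marker score (log counts per 10000, each marker divided by its 90th percentile) was at least 0.25 and 0.1 above the next. There were 13 lineage and 5 cartilage lists. The study's cluster names were not used, so gates may differ from its clusters. Counts were summed per gate and library with at least 20 cells and tested with edgeR 4.0.16 (quasi-likelihood, TMM, Benjamini-Hochberg over all genes tested, replicate number as a block, threshold 0.05), each gate against the mean of the others. A block was used because gates of 1 library come from the same sample. The labels do not say whether libraries came from separate animals. With the block, p-values measure how gate differences vary between these libraries. The gates of a fit share 1 estimate of this spread, although the mesenchymal sums held from 25 to 7655 cells. The adjusted p-values in the text come from edgeR unless DESeq2 (1.42.0, an alternative) is named. The members and lists were chosen with earlier results of these data known. Besides the 9 members, the text names set receptor partners and neurotrophins and, per comparison and role, up to 2 called genes with the largest difference and 1 direction in every library, of which a selection is printed and 1 is not reported here. For likeness, Pearson r of log2(CPM + 10) was used, among genes of at least 20 CPM that mark no gate. Positions are from GENCODE M21 and promoters from RefSeq, where 8 of 9 members matched. The 3 libraries held 20985636, 79905165 and 69890252 UMIs, and exact Poisson intervals and limits cover counting error only. R 4.3.3 and Python 3.11.15 were used.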

Additional observations from a re-analysis of the deposited data

How the results depend on the processing

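Of 49 called values of the 9 genes, 27 were called under every alternative. The 27 include Sema3a in the Prg4/Cilp and Wif1/Cytl1/Myoc gates, fitted against gates that include ones with 0, 1 and 3 Sema3a UMIs. Over 733 alternatives of these values, 670 kept direction and call, 62 kept direction and were no longer called, and 1 reversed: Sema3c in cartilage-like cells was 1.42 with the CAR-like gate and -0.31 without it, a comparison added after the data were seen. Leaving that gate out removes a gate near 0 from the mean of the others.

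Without replicates in turn, the number of members called ranged from 3 to 5 in tendon-like cells, from 2 to 5 in the Prg4/Cilp gate, from 1 to 6 in the Matn1/Matn3/Prkg2 gate, from 1 to 2 in the Lef1/Notum/Sfrp5 gate and from 0 to 5 in the Wif1/Cytl1/Myoc gate. The 0 arose without library 3, where edgeR tested 6 members, 1 of them with an unadjusted p under 0.05; with all libraries DESeq2 called 5 there. With cells of at least 3000 UMIs, 3 were called in tendon-like cells. With a gate margin of 0.2, 3 were called in the Prg4/Cilp gate, and with a margin of 0, 4 each in the Ihh/Col10a1/Ibsp and Lef1/Notum/Sfrp5 gates. DESeq2 called 2 in the Ihh/Col10a1/Ibsp gate. Without the replicate block, 3 were called in the Wif1/Cytl1/Myoc gate in place of 5, with calls of Robo1 and Sema3c lost there, and Robo1 was also lost in tendon-like cells (adjusted p = 0.0523). The causes were not tested. The fibroblast-like gate could not be fitted at a score of 0.35, a margin of 0.2 or at least 50 cells per sum, nor the Ihh/Col10a1/Ibsp gate under the latter 2.

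Over all genes tested, calls in fibroblast-like cells numbered 758 with the filter on low counts and 1149 without it. In the Wif1/Cytl1/Myoc gate they numbered 2120 with the block and 1032 without it, and in the Ihh/Col10a1/Ibsp gate 587 and 357. In tendon-like cells the 1258 calls became 2056 at a score of 0.35 and 2191 with at least 50 cells per sum, which also gave 3474 in the Wif1/Cytl1/Myoc gate. A margin of 0 gave 1056 in the Ihh/Col10a1/Ibsp gate and 3774 in the Lef1/Notum/Sfrp5 gate, in place of 2320, and a margin of 0.2 gave 1431 in the latter. Without library 2 or library 3, calls fell in each of the 10 comparisons, to between 239 and 2590. Library 1 had the fewest cells and gave 43 osteoblast-like cells, and 3 cartilage gates rested on 2 libraries. Small gates limit Sema3a throughout.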
